A study of Mus musculus with 16 samples.

Results

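Bone marrow from mice with B cell precursor acute lymphoblastic leukemia was compared between 2 genotypes, one of which carries a heterozygous Bank1 allele in addition to a heterozygous Pax5 allele. The comparison uses 12 of the 16 arrays of the series: 6 of Bank1+/- Pax5+/- mice (Bank1/Pax5 leukemia) minus 6 of Pax5+/- mice (Pax5 leukemia), chosen by their titles. It covers all 19938 genes with a probe set that names a single gene. The remaining 4 arrays, of normal B cell precursors (pro-B, pre-B) from wild-type (WT) mice, stayed out of the fit.

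Every leukemia array holds total RNA of total bone marrow from 1 mouse, described in the labels as leukemic marrow cells. The Pax5+/- genotype is shared by both groups, so only the Bank1 allele differs by label. No treatment was given, and the animals lived in a conventional facility in contact with common pathogens. The sources used here do not give age, sex, the construction of the alleles, the share of leukemic cells in each marrow or the state of the remaining Bank1 and Pax5 alleles. Values are deposited log2 intensities of probe sets, and a difference of 1 on that scale is a 2-fold difference. Differences are Bank1/Pax5 minus Pax5 leukemia, with the moderated standard error (SE) and the Benjamini-Hochberg adjusted p of limma over all 19938 genes.

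Bank1 encodes a scaffold protein that is tyrosine phosphorylated after B cell receptor engagement and links the receptor to Src family kinases and calcium release. Pax5 is the transcription factor that commits lymphoid progenitors to the B lineage, and mice that carry a heterozygous Pax5 loss can develop precursor B leukemia after exposure to infection. In growing leukemic cells much of the RNA and protein synthesis serves the assembly of ribosomes, for which small nucleolar RNAs (snoRNAs) guide the chemical modification of ribosomal RNA.

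Bank1, the gene whose allele differs, was lower on average in Bank1/Pax5 leukemia, but the difference did not pass the test. Its log2 level on Bank1/Pax5 arrays 1 to 6 was 9.16, 8.43, 9.52, 8.63, 8.79 and 7.26. On Pax5 arrays 1 to 6 it was 8.80, 11.09, 9.94, 10.56, 10.63 and 10.04. A single Pax5 array, array 1, lay within the range of the Bank1/Pax5 arrays. The difference was -1.54 (SE 0.42, adjusted p = 0.0819, limma), a 2.91-fold lower level. It passed without Pax5 array 1 (-1.82, adjusted p = 0.0488), with the level of Y-linked genes as a covariate (-1.74, 0.0491) and in a fit that also held the WT arrays (-1.54, 0.0266). These were 3 of 25 alternative fits. The highest adjusted p of Bank1 was 0.218, with the level of markers of non-B cells as a covariate. Where the probes lie relative to the altered part of the gene is not given, so the Bank1 level is a limited check of the labels.

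Pax5 itself varied more within each group than between the groups. Its level was 7.85, 11.85, 10.82, 9.92, 8.02 and 10.22 on Bank1/Pax5 arrays 1 to 6 and 12.21, 11.25, 7.52, 11.96, 11.82 and 11.14 on Pax5 arrays 1 to 6. Arrays 1 and 5 of Bank1/Pax5 leukemia and array 3 of Pax5 leukemia lay far below the rest. The difference was -1.20 (SE 0.90, adjusted p = 0.498), and with the level of markers of non-B cells as a covariate it became 0.28 (adjusted p = 0.886). In whole marrow, fewer cells of a type and less RNA per cell cannot be told apart.

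Markers of the B lineage were present in both groups. Cd79b, a signalling chain of the B cell receptor, lay between 11.20 and 12.93 (median 12.06) in Bank1/Pax5 leukemia and up to 12.97 (median 12.58) in Pax5 leukemia. Il7r, the receptor chain for the growth factor of B cell precursors, had mean levels of 12.03 and 12.02. Rag1 and Rag2, the recombinase genes of precursor lymphocytes, ranged from 5.79 to 10.67 and from 5.30 to 9.72 across Bank1/Pax5 arrays, and from 5.65 to 11.22 and from 5.44 to 9.48 across Pax5 arrays. Ebf1, Cd22 and Cd79a differed by -1.26, -1.14 and -0.94 (SE 0.68, 0.56 and 0.70). Cd79b, Vpreb1, Igll1, Rag1 and Rag2 were also below 0, at -0.47, -0.48, -0.27, -0.55 and -0.92. Blnk and Dntt went the other way, at 0.82 and 2.41 (SE 0.85 and 1.10), and Il7r was near 0. None of the 11 B lineage and precursor markers passed the test between the groups.

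Bank1/Pax5 leukemia showed many small decreases and fewer increases. Of 19938 genes, 445 (2.23%) were called at an adjusted p under 0.05: 358 (1.8%) were lower and 87 (0.436%) higher in Bank1/Pax5 leukemia. The median difference of the called genes was -0.55 for those lower and 0.46 for those higher. Protein-coding genes made up 328 of the lower and 82 of the higher calls, and 22 snoRNAs, 7 long non-coding RNAs and 2 microRNA genes were also called. The values of all 6 arrays of one group lay beyond all 6 of the other for 538 genes (2.7%), of which 371 (1.86%) were lower and 167 (0.838%) higher. Among the called genes the groups did not overlap for 263 of the lower and 57 of the higher ones.

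The lower calls lay mostly among well expressed genes. Of the 358, 286 had a mean level of at least 8, a range that holds 7492 genes, and 72 lay among the other 12446 genes. The median difference was -0.09 over genes at or above the median level of named probe sets and 0.02 over all genes, so each gene is read against a slight downward shift of bright genes. At mean levels of 8 to 9, 9 to 10 and 10 to 11 the medians were -0.12, -0.13 and -0.14. At these levels 98 of 2768, 98 of 2601 and 59 of 1440 genes were called lower. The shares of all genes given below beside gene groups are not matched for level. Families such as snoRNAs, rRNA processing or Arf genes were picked after their values were seen. Their called shares therefore describe the picked families and are no test of them. The balance of directions depends on that shift: 80.4% of calls were lower in the main fit, 93.5% after median centring and 53.1% after cyclic loess, which removes level-dependent shifts (222 lower, 196 higher).

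The number of calls depended on single arrays. It was 234, 124 and 192 without Bank1/Pax5 array 1, 5 or 6, and 228, 188, 133, 115 and 215 without Pax5 array 1, 2, 4, 5 or 6. It was also 49 with the level of non-B cell markers as a covariate, 55 without the 3 arrays with low Pax5 and 157 without Bank1/Pax5 arrays 4 and 6, which had the lowest level of mitosis genes. All 445 genes kept their direction in each of these fits, whether or not they were called. The fits reuse the arrays on which the 445 were chosen, so a kept direction is largely built in.

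**Figure D1:**
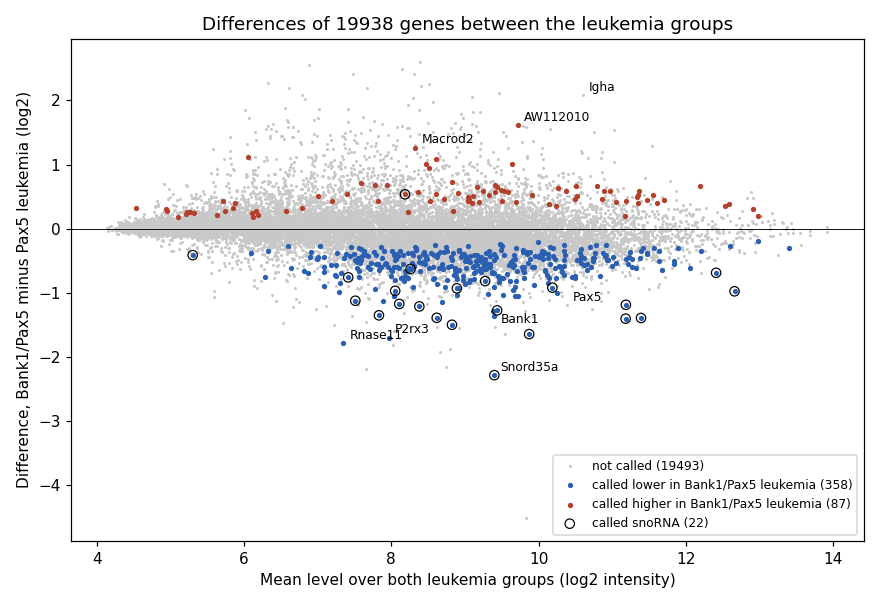
Difference between the groups (log2, Bank1/Pax5 minus Pax5 leukemia, vertical axis) against the mean level over both groups (log2 intensity, horizontal axis) for 19938 genes, with 358 genes called lower in blue, 87 called higher in red and the 22 called snoRNAs circled. Lower calls crowd at levels of 8 and above, snoRNAs make up many of the lowest called points, and the largest difference of all, that of Rnase12 at -4.52, was not called.

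The largest differences were mostly not the called ones. At least 2-fold differences were seen for 298 genes, 218 higher and 80 lower, yet only 32 of them were called, 6 higher and 26 lower. The extreme was Rnase12, a member of the ribonuclease A family, with a difference of -4.52 (SE 1.05, adjusted p = 0.0505). On Bank1/Pax5 arrays 1 to 6 Rnase12 was 5.97, 5.97, 5.82, 10.04, 11.72 and 5.87, and on Pax5 arrays it lay between 10.33 and 12.55. Arrays 1, 2, 3 and 6 of Bank1/Pax5 leukemia lay far below every Pax5 array, and array 5 lay within their range. Its neighbour on the chromosome, Rnase11 of the same family, was called lower at -1.79 (SE 0.38, adjusted p = 0.0364), with levels of 6.17 to 7.06 (median 6.38) in Bank1/Pax5 and 6.99 to 9.62 (median 8.20) in Pax5 leukemia.

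Among the 15 called genes with the largest increase, the groups did not overlap for 9. AW112010, a transcript known to be induced by interferon, led them at 1.61 (SE 0.36, adjusted p = 0.0448), with levels from 9.55 to 11.35 (median 10.53) in Bank1/Pax5 leukemia and from 7.74 to 9.57 (median 9.21) in Pax5 leukemia, so the groups just met. It was called in 9 of 25 alternative fits, and its adjusted p reached 0.204 with the non-B level as a covariate. Of the 30 most different called genes, the 15 higher and the 15 lower, 4 were called with that covariate, 0 with the replicate number as a block and 4 once the 3 low-Pax5 arrays were left out. Macrod2, an enzyme that removes ADP-ribose from proteins, was higher by 1.26 (SE 0.12, adjusted p = 0.00369). Its 6 Bank1/Pax5 arrays lay between 8.58 and 9.31 and its 6 Pax5 arrays between 7.53 and 7.84, with no overlap. That value comes from the brightest of 6 Macrod2 probe sets, and the other 5 differed by -0.021 to 0.13.

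Sh3pxd2a, a scaffold of invasive membrane protrusions, was higher by 1.09 (SE 0.19, adjusted p = 0.0216) on its brighter probe set, whereas its other probe set differed by -0.24. With the mean of its probe sets Sh3pxd2a differed by 0.43 and was no longer called (adjusted p = 0.155). Chst11, which adds sulfate to chondroitin chains, rose by 1.02, and Cmc1, an assembly factor of cytochrome c oxidase, by 1.00. Otulinl, a catalytically inactive relative of a deubiquitinase, rose by 0.95, Ypel5 by 0.73, Gskip, an anchor of protein kinase A and GSK3, by 0.71, and Mad2l1bp, which silences the spindle checkpoint, by 0.69. Hint2, a mitochondrial nucleotide hydrolase, Tm2d1 and Sub1, a coactivator of transcription, rose by 0.68, 0.68 and 0.67. Zfp985, a zinc finger gene, was called at 1.12 but was dim, with group means both under the median level of 7.025 for named probe sets. The other Zfp985 probe sets differed by 0.27 and 0.07. Of all 87 higher calls, 20 were dim in both groups, against 6 of the 358 lower ones.

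Several higher calls were genes of membrane traffic and autophagy. Map1lc3b, whose product LC3B coats forming autophagosomes, lay between 10.97 and 11.32 (median 11.07) on Bank1/Pax5 arrays and between 10.23 and 10.59 (median 10.47) on Pax5 arrays. The groups did not overlap, the difference was 0.67 (SE 0.08, adjusted p = 0.0053), and its second probe set gave 0.74. Sqstm1, which encodes the cargo receptor p62, rose by 0.42 (adjusted p = 0.0462), while Atg2b, a lipid transfer protein of the same process, fell by 0.49 (adjusted p = 0.00909). The other 24 of 27 autophagy genes did not pass the test, and their median difference with these 3 was 0.0045. Of the 27, 7.41% were called higher and 3.7% lower, against 0.436% and 1.8% of all genes.

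Among small GTPases that direct vesicles, Arf1, Arf2 and Arf5 were higher by 0.35, 0.40 and 0.38 (adjusted p = 0.0105, 0.0227 and 0.0417), each with no overlap between the groups. They are 3 of 16 Arf family genes, against 0.436% of all genes called higher. Rab2a, which acts between endoplasmic reticulum and Golgi, and Rab9, which acts between late endosome and Golgi, rose by 0.58 and 0.53, 2 of 59 Rab genes. The called share of Rab genes was 3.39%, against 0.436% of all genes called higher. The sorting nexins Snx1 and Snx3, which retrieve cargo from endosomes, rose by 0.52 and 0.67, and Snx29 fell by 1.04, 3 of 30. Of the sorting nexins 6.67% were called higher and 3.33% lower, against 0.436% and 1.8% of all genes. These families were picked after their values were seen, so called shares above those of all genes are built into the choice. The median difference was 0.02 for the Arf genes, which turned to -0.04 after median centring, and 0.09 for the Rab genes. Without Bank1/Pax5 array 5 or Pax5 array 5, 1 of the Arf GTPases was called. No Arf gene was called once non-B markers were a covariate or without the 3 arrays with low Pax5. None of the Rab GTPases was called without any one of Bank1/Pax5 arrays 1, 5 and 6 and Pax5 arrays 2, 4, 5 and 6, and no sorting nexin rose past the threshold without any one of Bank1/Pax5 arrays 1 and 5 and Pax5 arrays 1, 4 and 5. The 24 subunits of the vacuolar ATPase and 17 cathepsins, which serve the lysosome, held no call, with medians of 0.11 and 0.10.

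**Figure D2:**
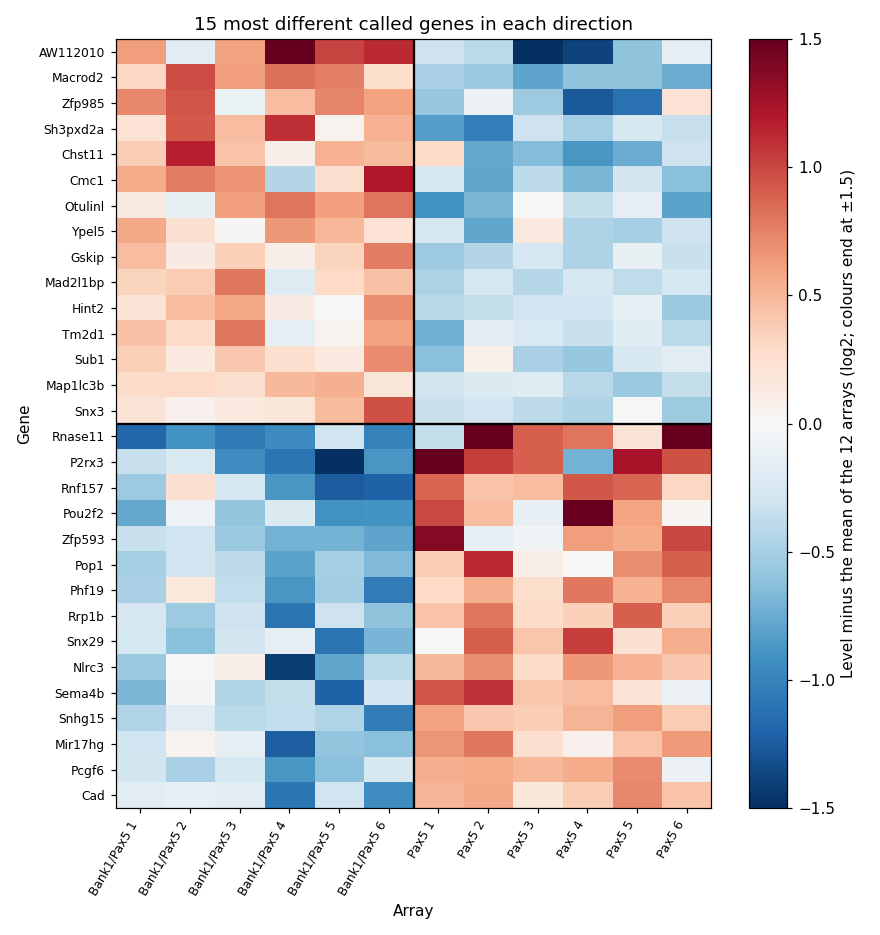
Level of the 15 most different called genes in each direction on each of the 12 leukemia arrays (columns), as the log2 level minus the mean of the 12 arrays (colour, ending at 1.5 either way). The upper 15 genes are higher and the lower 15 lower in Bank1/Pax5 leukemia, and the groups do not overlap for 9 of the upper and 11 of the lower genes.

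Among the 15 called genes with the largest decrease, 11 showed no overlap. P2rx3, an ATP-gated ion channel, fell by 1.71 (SE 0.37, adjusted p = 0.0407), from 7.26 to 9.67 (median 8.97) on Pax5 arrays against 6.33 to 7.74 (median 7.07) on Bank1/Pax5 arrays. Its values overlapped because Pax5 array 4, at 7.26, lay far below the other Pax5 arrays. These values are of the brighter P2rx3 probe set. The second, dim in both groups, differed by -0.40 (means of 5.70 and 6.10). P2rx3 was called in 8 of 25 alternative fits. Rnf157, a ubiquitin ligase, fell by 1.29 (SE 0.25, adjusted p = 0.0262), with 8.14 to 9.64 (median 8.68) in Bank1/Pax5 and 9.70 to 10.31 (median 10.05) in Pax5 leukemia. Pou2f2, which encodes Oct-2, a transcription factor of B cells, fell by 1.15 (SE 0.27, adjusted p = 0.0496), close to the threshold. It ranged from 7.78 to 8.61 in Bank1/Pax5 leukemia and from 8.57 to 10.17 in Pax5 leukemia.

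Phf19, an accessory subunit of Polycomb repressive complex 2, fell by 1.05 (adjusted p = 0.0197) and Pcgf6, a subunit of a variant Polycomb repressive complex 1, by 0.92 (adjusted p = 0.0147), both without overlap. Further from the top, Setdb1, a histone H3 lysine 9 methyltransferase, lay between 8.87 and 9.18 in Bank1/Pax5 and between 9.49 and 9.69 in Pax5 leukemia, a difference of -0.55 (SE 0.06, adjusted p = 0.00383). Tet3, a 5-methylcytosine dioxygenase, fell by 0.64 (adjusted p = 0.00834) and Kmt2b, a histone H3 lysine 4 methyltransferase, by 0.52 (adjusted p = 0.0408). Setdb1 and Kmt2b were the called members among 18 histone lysine methyltransferases, whose median difference was -0.22 and of which 17 lay below 0, against 44.9% of all genes. The called share was 11.1%, against 1.8% of all genes called lower.

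Nlrc3, a restrainer of innate and T cell signalling, fell by 1.02 (adjusted p = 0.0408) and Sema4b, a membrane semaphorin, by 1.01 (adjusted p = 0.0483). Sting1, the adaptor of cytosolic DNA sensing, fell by 0.56 (adjusted p = 0.0396), and Csk, the kinase that holds Src family kinases inactive, by 0.51 (adjusted p = 0.0321). Ikzf1, which encodes the lymphoid transcription factor Ikaros and is a suppressor of B cell leukemia, was lower by 0.41 (SE 0.09, adjusted p = 0.046). Ikzf1 was called in 8 of 25 alternative fits, and leaving out the 3 low-Pax5 arrays gave its highest adjusted p, 0.239. Its levels were 10.54 to 11.04 (median 10.62) in Bank1/Pax5 and 10.89 to 11.20 (median 11.17) in Pax5 leukemia, with the groups overlapping. It was the 1 member called of 22 leukemia suppressor genes (4.55%, against 1.8% of all genes called lower), whose median was -0.11.

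The group with the most calls was that of snoRNAs. Of 53 measured, 21 were called lower (39.6%, against 1.8% of all genes) and 1 higher, and 47 lay below 0 (44.9% of all genes). Their median difference was -0.59. For 20 of them (37.7%, against 1.86% of all genes) every Bank1/Pax5 array lay below every Pax5 array. Probe sets for such short RNAs may also read longer transcripts that contain them, which these arrays do not separate.

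Box C/D snoRNAs, which guide ribose methylation, gave 10 lower calls among 30, with a median of -0.44. Snord35a had the largest difference of any called gene: its levels were 7.63 to 8.91 (median 8.20) in Bank1/Pax5 leukemia and 10.04 to 11.39 (median 10.39) in Pax5 leukemia, a difference of -2.29 (SE 0.26, adjusted p = 0.00369). Snord35b also fell, Snord53 fell by 1.40 and Snord33 fell by 1.39, all without overlap. Snord53 lay between 10.35 and 11.22 against 11.66 and 12.28. The 1 call in the other direction was Snord8, at 0.53 (adjusted p = 0.0235). Snord118, needed for the maturation of ribosomal RNA of the large subunit, had the next largest difference of a snoRNA, -2.17, but spread over 5.51 to 9.09 in Bank1/Pax5 leukemia and did not pass (adjusted p = 0.071).

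Box H/ACA snoRNAs, which guide pseudouridylation, gave 11 lower calls among 20, with a median of -0.92. Snora16a fell by 1.65, Snora73a by 1.41, Snora31 by 1.22 and Snora75 by 1.18. Snora52, one of the brightest at 11.78 to 12.53 in Bank1/Pax5 and 12.95 to 13.35 in Pax5 leukemia, fell by 0.98 (SE 0.12, adjusted p = 0.00617).

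Most snoRNAs are cut from introns of other genes, and 52 of the 53 lie within one. The 21 called lower lie in 18 different genes, among them Rpl13a, Snhg3 and Snhg12. For 29 snoRNAs the gene around was itself measured, 25 genes in all. These 25 genes had a median difference of -0.11. Of them 4 were called lower, against 1.8% of all genes, and none higher. In 20 of the 29 cases the difference between the groups was more negative for the snoRNA than for the gene around it. Snora52 fell by 0.98 while Rplp2 around it differed by 0.22 (adjusted p = 0.268), and Snora31 fell by 1.22 while Tpt1 differed by -0.08 (adjusted p = 0.332). Only Ncl, around Snora75, was both called lower and the gene around a called snoRNA, 1 of 9 such cases. Other snoRNAs in genes called lower fell less than the gene. Snord82 within Ncl (-0.51) differed by 0.05, Snord57 within Nop56 (-0.62) by -0.18 and Snora30 within Srcap (-0.46) by 0.29. Snord37 within Eef2 (-0.19) was more negative than its gene, at -0.43, and was not called. Differences between a snoRNA and its gene were read side by side and were not tested, since each probe set has its own response.

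The level of snoRNAs on an array, taken as the median over the 53, was 7.99, 8.77, 8.32, 7.93, 7.63 and 7.67 on Bank1/Pax5 arrays 1 to 6. On Pax5 arrays it was between 8.91 and 9.21, so every Pax5 array lay above every Bank1/Pax5 array. WT arrays, which were outside the fit, lay between 8.15 and 8.53. Beside this, the level of non-B cell markers was 8.87, 7.31, 7.51, 8.60, 9.29 and 8.06 on the Bank1/Pax5 arrays and 7.04 to 8.13 on the Pax5 arrays, and its part in the snoRNA difference was not tested otherwise than with it as a covariate. With that marker level as a covariate, 8 snoRNAs were called lower, with a median of -0.38; without the 3 arrays with low Pax5 there were 4 (-0.48), and without Bank1/Pax5 arrays 4 and 6 there were 13 (-0.53). Leaving out single arrays gave 12 to 25 snoRNAs called lower, with 13 without Bank1/Pax5 array 5 and 12 without Pax5 array 5.

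**Figure D3:**
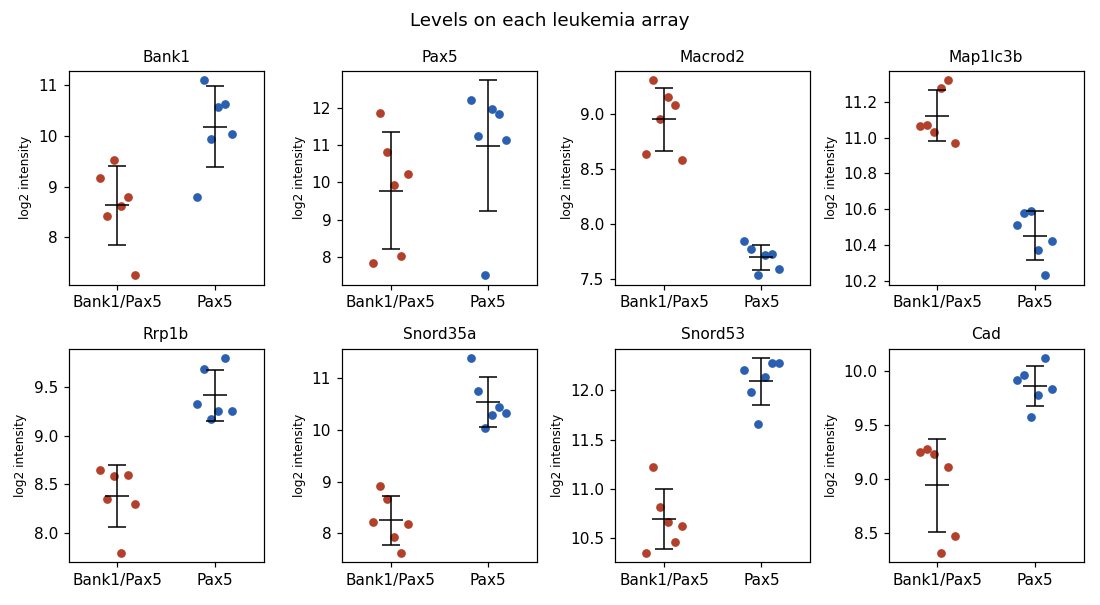
Log2 level of 8 genes on each leukemia array (points), with the mean and SD of each group of 6 (bars). Bank1 and Pax5 overlap between the groups, whereas Macrod2 and Map1lc3b (higher) and Rrp1b, Snord35a, Snord53 and Cad (lower in Bank1/Pax5 leukemia) do not.

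Some proteins that process ribosomal RNA were also called lower. Of 42 rRNA processing factors, 9 were called lower (21.4%, against 1.8% of all genes) and none higher, and the median difference was -0.35. Rrp1b, a nucleolar protein of ribosome assembly, fell from 9.17 to 9.80 (median 9.29) in Pax5 leukemia to 7.79 to 8.64 (median 8.46) in Bank1/Pax5 leukemia, a difference of -1.04 (SE 0.16, adjusted p = 0.0122). Nat10, an RNA acetyltransferase, fell by 0.74, and Nol6, Utp20, Nop56, Mdn1, Pdcd11, Gnl2 and Bms1 by 0.65, 0.63, 0.62, 0.60, 0.54, 0.42 and 0.41. Once non-B markers were a covariate, none of the rRNA processing factors was called (median -0.24), without the arrays with low Pax5 3 were (-0.39), and without Bank1/Pax5 arrays 4 and 6 there were 2 (-0.22). Without Bank1/Pax5 array 5 or 6, or without Pax5 array 1, 2, 4 or 5, 4 rRNA processing factors were called.

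The wider list of MYC targets and ribosome biogenesis genes held 3 lower calls among 23, with a median of -0.38 and 21 below 0. They were Cad, Nop56 and Ncl, the last encoding nucleolin, which fell by 0.51 from levels between 11.96 and 12.33 to levels between 11.29 and 11.82. Myc itself differed by -0.37 (SE 0.17, adjusted p = 0.267). Polr1d, a subunit shared by RNA polymerases I and III, fell by 0.56 (adjusted p = 0.0285). It was 1 of 5 polymerase I subunits in the list (20%, against 1.8% of all genes called lower). No MYC target was called without Bank1/Pax5 array 5 or 6 or without any one of Pax5 arrays 1, 2, 4, 5 and 6, and 8 were without Pax5 array 3.

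The proteins of the ribosome itself did not follow as a group. Of 59 cytoplasmic ribosomal protein genes, 4 were called lower (6.78%, against 1.8% of all genes). Rpl12, Rps29, Rpl30 and Rplp1 fell by 0.87, 0.64, 0.52 and 0.30. The median of all 59 was -0.05, turning above 0 after cyclic loess. Among 77 mitochondrial ribosomal protein genes, Mrps24 alone was called, at -0.44, with a median of -0.11. Eef2, the translocase of translation elongation, fell by 0.19 (adjusted p = 0.0235). Without any one of Bank1/Pax5 arrays 1, 5 and 6 and Pax5 arrays 1, 4, 5 and 6, 2 of the cytoplasmic ribosomal proteins were called lower. Ribosomal protein genes have many processed copies, so the values of Rpl12, Rps29, Rpl30 and Rplp1 may include signal of such copies and are uncertain.

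Of 48 genes of transfer RNA processing and modification, 10 were called lower (20.8%, against 1.8% of all genes) and none higher, with a median of -0.30. Pop1, a shared subunit of RNase P and RNase MRP, lay between 7.24 and 7.74 (median 7.53) in Bank1/Pax5 and between 8.03 and 9.15 (median 8.57) in Pax5 leukemia, a difference of -1.05 (SE 0.19, adjusted p = 0.0212). Trmt11, a tRNA methyltransferase, fell by 0.85, Pus7, a pseudouridine synthase, by 0.81, and Trnt1, which adds the terminal CCA, by 0.78. Qtrt1, Tyw1, Tsen54, Nsun2, Pusl1 and Pus1 fell by 0.78, 0.66, 0.60, 0.48, 0.44 and 0.42. For tRNA processing and modification as well, no member was called once non-B markers were a covariate (median -0.14), 3 were without the arrays with low Pax5 and 1 without Bank1/Pax5 arrays 4 and 6. Without Bank1/Pax5 array 1, 5 or 6 there were 6, 2 and 5 calls in tRNA processing and modification, and without Pax5 array 1, 2, 4, 5 or 6 there were 5, 5, 4, 3 and 5. Of 17 cytoplasmic tRNA ligases, Lars fell by 0.45 and Sars rose by 0.35.

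Of 23 importins and exportins, which carry cargo between nucleus and cytoplasm, 6 were called lower (26.1%, against 1.8% of all genes). In all 21 of the 23 lay below 0, against 44.9% of all genes, with a median of -0.28. Among all genes with a mean level of 9 to 10, the median was -0.13 and 98 of 2601 were called lower. Xpot, the exporter of tRNA, lay between 9.06 and 9.83 (median 9.38) in Bank1/Pax5 and between 10.09 and 10.24 (median 10.19) in Pax5 leukemia, a difference of -0.77 (SE 0.12, adjusted p = 0.0118). Xpo1, the main exporter of proteins and of ribosomal subunits, fell by 0.65 (adjusted p = 0.0149), from 10.67 to 11.22 in Pax5 leukemia to 10.12 to 10.58 in Bank1/Pax5 leukemia. Ipo13, Ipo4, Tnpo2 and Tnpo3 fell by 0.69, 0.61, 0.44 and 0.28, and none of the 6 overlapped between the groups; 1.86% of all genes lay lower without overlap. All 20 nucleoporins lay below 0, with a median of -0.28, but Nup210 alone was called. None of the 6 carriers was called once non-B markers were a covariate, where the median of the importins and exportins was -0.30.

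Of 23 purine, pyrimidine and one-carbon enzymes, 4 were called lower (17.4%, against 1.8% of all genes). All 23 lay below 0, against 44.9% of all genes, with a median of -0.56. Cad, which carries out the initial steps of pyrimidine synthesis, lay between 8.32 and 9.27 (median 9.17) in Bank1/Pax5 and between 9.57 and 10.12 (median 9.87) in Pax5 leukemia, a difference of -0.92 (SE 0.18, adjusted p = 0.0294). Pfas, Adss and Paics, enzymes of purine synthesis, fell by 0.81, 0.68 and 0.62, also without overlap. None of the 4 was called once non-B markers were a covariate or without the arrays with low Pax5, where the median of the purine, pyrimidine and one-carbon enzymes was -0.42 and -0.72. Without Bank1/Pax5 arrays 4 and 6, the 2 with the lowest mitosis level, 3 of the purine, pyrimidine and one-carbon enzymes were called and the median was -0.28. Without Bank1/Pax5 array 5 or Pax5 array 2, 4 or 5 there was 1 call, and without Bank1/Pax5 array 6 or Pax5 array 1 or 6 there were 2. Fasn, the fatty acid synthase, and Scap, the escort of the sterol-regulated transcription factors, fell by 0.85 (adjusted p = 0.0122) and 0.72 (adjusted p = 0.00834). They were 2 of 19 genes of fatty acid and sterol synthesis (10.5%, against 1.8% of all genes).

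Many genes of ribosome assembly, nucleotide synthesis and nuclear transport are known to be bound by MYC and related factors at the E-box CACGTG, a sequence that reads alike on both strands. In the 250 bases before the start, this motif was present for 25 of 276 genes called lower at or above the median level (9.06%). The share was 10.2% (838 of 8198) for all genes at that level and 8.11% of 15614 promoters in all. Among the called members of the MYC target, nucleotide enzyme and nuclear transport groups, 3 of 11 with a promoter sequence held it. The windows of Paics (chr5:76951072-76951131, plus strand) and Xpot (chr10:121626531-121626582, minus strand) are shown as 1 example each of nucleotide synthesis and nuclear transport. The third gene, Tnpo2, also fell without overlap and is not printed. They are from RefSeq on GRCm38.p6, written in the direction of the gene, with the E-box in capitals.
Paics: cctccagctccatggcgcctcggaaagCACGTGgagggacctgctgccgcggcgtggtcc
Xpot: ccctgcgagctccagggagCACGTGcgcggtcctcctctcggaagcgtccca
A match is a description of these letters and not of binding. The share among genes called lower was not above that among all genes at or above the median level, which were not matched further for level. Bases after the start were not searched.

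Mir17hg, the host transcript of an oncogenic microRNA cluster that begins with miR-17, was called lower. It lay between 6.55 and 7.84 (median 7.34) in Bank1/Pax5 leukemia and between 7.85 and 8.58 (median 8.32) in Pax5 leukemia. The groups did not overlap, and the difference was -0.94 (SE 0.21, adjusted p = 0.0408). The 6 main mature microRNAs of the cluster are shown from RefSeq (GRCm38.p6, chr14, plus strand, from chr14:115043684-115043706 for miR-17-5p to chr14:115044476-115044496 for miR-92a-3p), with the seed, bases 2 to 8, in capitals. They fall into 4 seeds: miR-17 and miR-20a share AAAGUGC, miR-19a and miR-19b share GUGCAAA, and miR-18a and miR-92a have their own.
mmu-miR-17-5p: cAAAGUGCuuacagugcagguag
mmu-miR-20a-5p: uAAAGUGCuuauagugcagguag
mmu-miR-18a-5p: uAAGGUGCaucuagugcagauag
mmu-miR-19a-3p: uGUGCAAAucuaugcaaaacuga
mmu-miR-19b-3p: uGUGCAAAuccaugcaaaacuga
mmu-miR-92a-3p: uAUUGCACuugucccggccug
The probe sets of the precursors did not follow the host. Mir17 differed by 0.16 (adjusted p = 0.251), Mir18 by 0.02, Mir19a by 0.31, Mir20a by 0.04 and Mir19b-1 by 0.015, and except for Mir18 their mean levels were under the median level of 7.025 in both groups. The mature microRNAs were not measured. Of all 297 microRNA genes, Mir16-2 and Mir98 were called (0.673%, against 0.436% of all genes called higher), both higher by 0.30 and 0.26 and both dim.

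Some genes of RNA decay and splicing were called lower, as were 1.8% of all genes. Of 7 nonsense-mediated decay factors, Smg5, Smg6 and Upf1 fell by 0.70, 0.56 and 0.40. Smg5 lay between 8.81 and 9.21 in Bank1/Pax5 and between 9.38 and 9.84 in Pax5 leukemia. Dicer1, which cuts microRNA precursors, fell by 0.47 (SE 0.06, adjusted p = 0.00834) without overlap. Among 10 SR splicing factors Srsf6, Srsf11 and Srsf2 fell by 0.45, 0.37 and 0.31, and among 17 hnRNP proteins Hnrnpa0, Hnrnpu and Hnrnpul1 fell by 0.86, 0.34 and 0.30. Without any one of Bank1/Pax5 array 5 and Pax5 arrays 2, 4, 5 and 6, 1 of the nonsense-mediated decay factors and 1 of the SR splicing factors was called; for the SR splicing factors this was also so without any one of Bank1/Pax5 arrays 1 and 6 and Pax5 array 1. Hnrnpu, a nuclear scaffold and splicing factor, lay at 11.98 to 12.09 against 12.32 to 12.44, without overlap. Polr2a and Polr2b, the large subunits of RNA polymerase II, fell by 0.47 and 0.55.

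**Figure D4:**
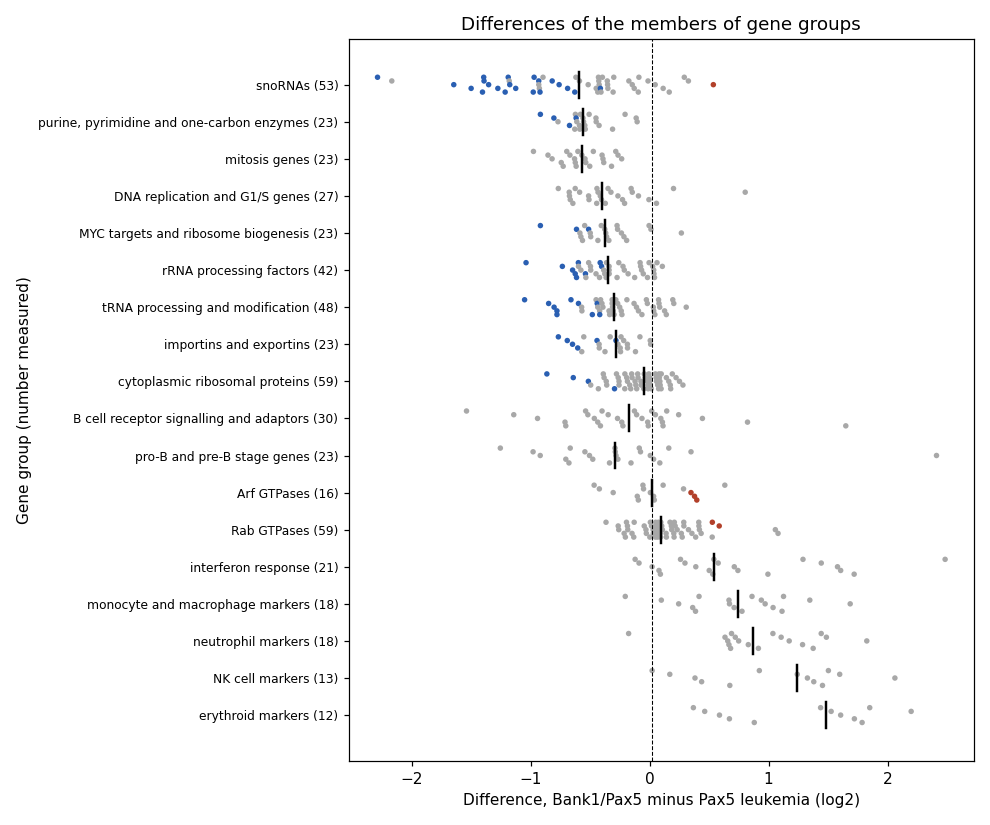
Difference of each measured member (points; blue called lower, red called higher, grey not called) of 18 gene groups, with the number measured in brackets and a bar at each median (log2, Bank1/Pax5 minus Pax5 leukemia). snoRNAs, nucleotide enzymes and mitosis genes lie lowest, at medians of -0.59, -0.56 and -0.57, and markers of NK and erythroid cells lie highest, at 1.24 and 1.48, without a called member.

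The list of B cell receptor signalling and adaptor genes, the pathway in which Bank1 acts, held no call. Csk, called lower above, was not in this list. Of 30 measured, 20 lay below 0, the median was -0.18 and, with Bank1 among them, the smallest adjusted p was 0.071, that of Plcg2. Plcg2, the phospholipase that releases calcium downstream of the receptor, differed by -0.54 (SE 0.14), with 10.43 to 11.25 (median 10.96) in Bank1/Pax5 and 11.03 to 11.71 (median 11.47) in Pax5 leukemia. Itpr3, an inositol trisphosphate receptor that releases calcium, differed by -0.71 (adjusted p = 0.0969). The groups overlapped for both genes. The 27 genes of CD40, Toll-like receptor and PI3K-AKT signalling also held no call, with a median of -0.16.

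The lists of stage and identity genes of the B lineage did not separate the groups either. Ikzf1 and Pou2f2, called lower above, were not in these lists. Pro-B and pre-B stage genes had a median of -0.29 over 23 members, mature B cell genes 0.11 over 20, Pax5-activated genes 0.02 over 21, Pax5-repressed genes 0.05 over 22 and genes of the IL-7 receptor pathway 0.02 over 20, all with no call. After median centring the medians of Pax5-activated genes, Pax5-repressed genes and IL-7 receptor genes fell below 0. Dntt, the polymerase that adds bases at recombination joints, had the widest separation of means among them. It lay between 6.05 and 11.88 (median 10.25) in Bank1/Pax5 and between 4.95 and 9.57 (median 7.34) in Pax5 leukemia, a difference of 2.41 with an SE of 1.10 (adjusted p = 0.265). Cd37, a tetraspanin of B cells, and Tnfrsf13c, the BAFF receptor, differed by -0.70 (adjusted p = 0.0759) and -1.12 (adjusted p = 0.102).

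Mitosis genes were lower on some Bank1/Pax5 arrays and not on others. All 23 lay below 0, with a median of -0.57, and none was called; Kif23, a kinesin of the dividing cell's midzone, came closest at -0.67 (adjusted p = 0.0902). The level of the list on Bank1/Pax5 arrays 1 to 6 was 10.36, 10.28, 10.22, 8.40, 9.90 and 9.0, against 10.24 to 10.56 on Pax5 arrays. Without arrays 4 and 6 the median of mitosis genes was -0.05. For the 27 DNA replication and G1/S genes the median went from -0.41, with 24 below 0, to 0.04. The fit without these arrays was chosen after seeing the data.

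Markers of cells other than B cells were higher on average in Bank1/Pax5 leukemia, and none was called. Their part in the calls above was not tested beyond the fit with their level as a covariate. Of 18 neutrophil markers 17 lay above 0, with a median of 0.87, and the level of the list ranged from 7.54 to 12.23 in Bank1/Pax5 and from 7.02 to 11.54 in Pax5 leukemia. Of 18 monocyte and macrophage markers 17 lay above 0, with a median of 0.74 and levels of 8.63 to 11.18 against 8.47 to 9.62. All 12 erythroid markers lay above 0, with a median of 1.48. Their level was 10.06, 8.05 and 9.02 on Bank1/Pax5 arrays 1, 4 and 5 and between 6.31 and 7.21 on the Pax5 arrays. With the mean level of such markers as a covariate the median of neutrophil markers turned to -0.96. The neutrophil markers are themselves part of that level, so this turn is partly built into the fit.

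Lymphoid markers outside the B lineage came nearer to a call. All 13 NK cell markers lay above 0, with a median of 1.24, and the level of the list ranged from 5.77 to 8.34 in Bank1/Pax5 and from 5.51 to 5.89 in Pax5 leukemia. Tbx21, the factor T-bet, did not overlap, at 6.53 to 7.03 against 6.30 to 6.38, and differed by 0.38 (adjusted p = 0.0502). Prf1, the pore protein perforin, differed by 0.44 (adjusted p = 0.0508) and Eomes by 0.92 (adjusted p = 0.0546). Cd3g, a chain of the T cell receptor complex, ranged from 6.07 to 9.67 in Bank1/Pax5 and only from 5.73 to 5.98 in Pax5 leukemia, a difference of 2.03 (adjusted p = 0.0618), while the 14 T cell markers had a median of 0.43. Some of these passed elsewhere: Tbx21 was called in 5 of 24 alternative fits, Cd3g in 4 of 25, Eomes in 3 of 24 and Prf1 in 3 of 25. With all 3 groups in the fit, 4 NK cell and 2 T cell markers were called higher.

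The listed interferon response genes and antigen receptor segments were also higher on average, without passing the test. AW112010, the interferon-induced transcript called higher above, was not in the interferon list. Of 21 interferon genes 19 lay above 0, with a median of 0.54; the level of the list was 10.94 on Bank1/Pax5 array 6 and 7.31 on array 2, against 7.28 to 9.19 on Pax5 arrays. Rsad2, an antiviral enzyme, differed by 2.48 (adjusted p = 0.0988), and Isg20, an exonuclease, by 1.58 (adjusted p = 0.0781). Without Bank1/Pax5 arrays 4 and 6 the median of the interferon response list was 0.05, and without array 6 alone it was 0.13. Without Bank1/Pax5 array 2 or 3, 2 and 1 of the interferon response genes were called. Of 20 segments of immunoglobulin and T cell receptor genes 19 lay above 0, with a median of 0.81. Igha, the constant region of IgA, had the smallest adjusted p among them. It lay between 10.02 and 13.38 (median 11.75) in Bank1/Pax5 and between 8.86 and 10.83 (median 9.21) in Pax5 leukemia, a difference of 2.08 (SE 0.54, adjusted p = 0.0714). The 11 plasma cell markers had a median of 0.17.

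**Figure D5:**
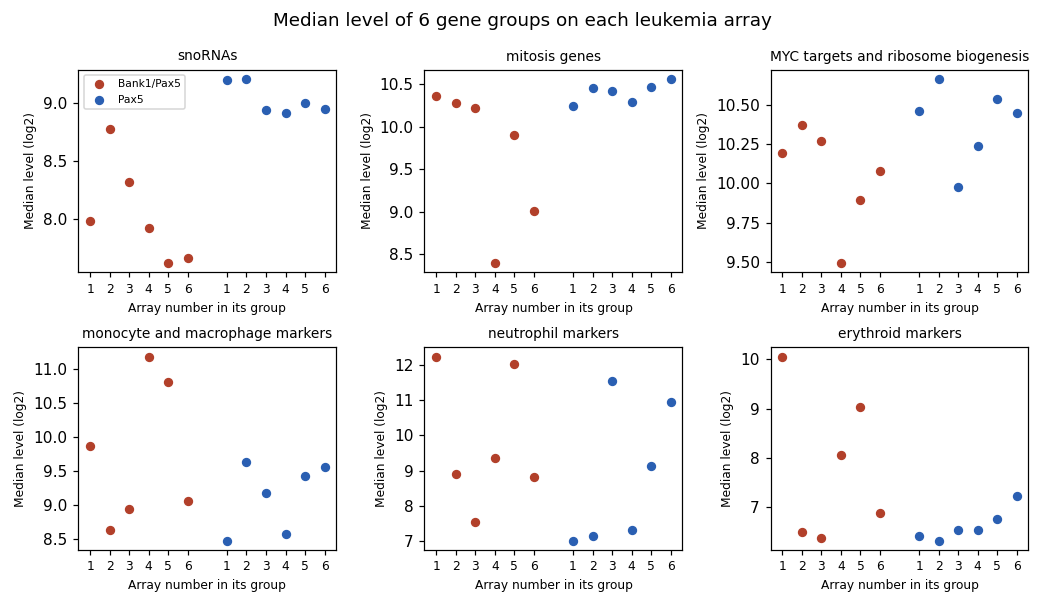
Median log2 level of 6 gene groups on each leukemia array, by array number within Bank1/Pax5 (red) and Pax5 leukemia (blue). The snoRNA level separates the groups completely, the mitosis level is low on Bank1/Pax5 arrays 4 and 6, and the erythroid level is highest on Bank1/Pax5 arrays 1 and 5. The neutrophil level is high on Bank1/Pax5 arrays 1 and 5 and on Pax5 arrays 3 and 6.

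The arrays of Bank1/Pax5 leukemia were less alike than those of Pax5 leukemia. Array pairs correlated over genes at 0.923 to 0.984 within Bank1/Pax5, at 0.958 to 0.982 within Pax5 and at 0.923 to 0.981 between the groups. The SD of a gene was larger in Bank1/Pax5 leukemia for 57.1% of genes, with a median of 0.180 against 0.159. Xist was high and Y-linked genes low on Bank1/Pax5 arrays 3 and 5 and on Pax5 array 2, so the sexes were mixed in both groups. With the level of Y-linked genes as a covariate 344 genes were called, 304 of them among the 445.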

How the data were processed

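Total RNA of leukemic marrow was extracted with Trizol, fragmented and biotinylated, per the labels' protocols, and hybridised to 6 arrays per group. The design text gives 6 mice per group. Per the submitters' processing notes the authors used RMA and the oligo package, without versions. The authors deposited log2 intensities per probe set. The sources used here do not state background or filter settings, the array build or batches. Array medians lay between 6.58 and 6.71, and precision is limited by how many arrays there are. Of 35556 probe sets, 21789 named 1 gene, 1621 several and 12146 none. Symbols were updated by gene record, except for 91 probe sets. For the 999 genes with several probe sets, the one with the highest mean over the 12 leukemia arrays was kept.

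A model with 1 mean per group was fitted to the 12 arrays with limma 3.58.1 (lmFit, eBayes) in R 4.3.3, two-sided, and a gene was called at a Benjamini-Hochberg adjusted p under 0.05. A gene is dim under 7.025, the median level of named probe sets. A list's level on one array is its members' median. The non-B level is the mean over marker lists of other marrow cells. The procedure was tested on simulated data.

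Named were Bank1, Pax5, the 15 most different called genes either way (no immunoglobulin or T cell receptor segments, uncharacterised genes or small RNAs) and up to 4 members with the smallest p of each of 31 lists. Of 601 list places, 547 were measured. The lists and comparison were chosen with earlier results of these data known. Gene families such as snoRNAs, rRNA processing or Arf genes, their members and Rnase12 were picked after their values were seen. Alternatives changed the samples, scaling, probe set choice, filter, moderation, weights, covariates or replicate block, or left out arrays. Whether replicate numbers pair the arrays was checked by correlating deviations.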

Additional observations from a re-analysis of the deposited data

Results flagged for a closer look

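An array was singled out where its gap to the nearest of the other 5 in its group, divided by the range of the group, exceeded Dixon's critical value of 0.625. Over 149 named genes, 298 groups were tested and 28 values passed, as did 5 levels of gene lists; chance gives about 5% of groups. Of these 33, 11 fell on Pax5 array 3 and 7 on Pax5 array 2.

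Pax5 array 3 had the lowest Pax5 of its group at 7.52, and also the lowest Nop56 (11.31), Pdk1 (8.85) and nucleoporin level (9.55). It had the highest values of genes of other marrow cells, with Bst2 at 10.16, Clec9a at 8.19, Cpa3 at 7.41, Mcpt8 at 8.22, Ms4a2 at 5.53 and Cxcl2 at 5.82, and the highest level of dendritic cell markers (10.22). Pax5 array 2 was lowest in the Y-linked genes Kdm5d (4.86), Uty (4.78) and Eif2s3y (4.59), and so in the Y-linked level (4.78), and highest in Xist and in the X-inactivation level it forms (9.96). It was also highest in Fcgr1 (6.93).

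On the other Pax5 arrays, E2f1 was highest on array 1 (9.79), P2rx3 lowest on array 4 (7.26), Il2rb and Hk1 highest on array 5 (8.22 and 13.04), and on array 6 Pcgf6 (8.83) and Ikzf1 (10.89) were lowest and Car1 (7.63) highest. In Bank1/Pax5 leukemia, array 2 was lowest in Jchain (9.51) and in the level of Pax5-repressed genes (8.39), and array 4 in Cyc1 (9.37). Array 5 was highest in Rnase11 (7.06), Prdm1 (7.69) and Tnfrsf17 (6.71). On array 6 Ccl3 was highest (12.22) and Snhg15 lowest (8.61).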

How the results depend on the processing

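Genes called in all, higher and lower were 1325, 335 and 990 with all 3 groups in the fit, 185, 40 and 145 with trend and robust moderation, 756, 177 and 579 with array weights, 1146, 295 and 851 at an adjusted p under 0.1, and 32, 6 and 26 at a difference of at least 2-fold. They were 49, 17 and 32 with the non-B level as a covariate, 55, 9 and 46 without the 3 arrays with low Pax5, and 157, 52 and 105 without the 2 arrays with the lowest mitosis level, a fit added after seeing the data. Median centring gave 28 higher calls, and cyclic loess 196 higher and 222 lower. Leaving out 1 array gave 115 to 550 calls, 19 to 112 higher and 95 to 442 lower, Bank1 differences of -1.82 to -1.27 and Pax5 differences of -1.89 to -0.81. Bank1 passed in 3 of 25 alternative fits: with all 3 groups (-1.54), with the Y-linked covariate (-1.74) and without Pax5 array 1 (-1.82). The 445 called genes kept their direction in each of these fits, and 443 did with the mean of probe sets. They were chosen on these same arrays, so this is largely built in.

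With the replicate number as a block, limma called 0 genes, 0 higher and 0 lower, against 445 without it; at an unadjusted p under 0.05 there were 3149 with the block and 3714 without. Same-numbered arrays correlated at -0.378 to 0.121 over 6 pairs, with 0 arrays closest to their own number, so the numbers do not pair the arrays.

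The sign turned for Eif2s3y with the Y-linked covariate (0.18) and, with the non-B covariate, for Pax5 (0.28), Cxcl2 (-0.012), Lcn2 (-0.17), Ltf (-0.71), Ly6g (-0.60), Ppbp (-0.0024), Clec1b (-0.15), F2rl2 (-0.24), Prdm1 (-0.031), Tnfrsf17 (-0.039), Hdc (-0.63) and Vcan (-0.11). It also turned for Prdm1 (-0.026) and Tnfrsf17 (-0.024) without the arrays with low Pax5. None of these was called, and the cause was not tested. Lcn2, Ltf, Ly6g, Ppbp, Clec1b, F2rl2, Hdc and Vcan belong to the lists that form the non-B level, and Eif2s3y to the Y-linked level. Their turns are therefore partly built into those fits. Depth cannot be read from arrays, and their number limits the precision.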
